A study of Danio rerio with 6 samples.

Results

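The phagocyte NADPH oxidase transcripts described here are 5 zebrafish genes, cybb, cyba, ncf1, ncf4 and rac2, taken by symbol from the 31962 Ensembl genes counted in each library. Exact matches were found for 3 names (cybb, ENSDARG00000056615; cyba, ENSDARG00000018283; rac2, ENSDARG00000038010). The others stand in capitals in the symbol table (NCF1, ENSDARG00000033735; NCF4, ENSDARG00000040812).

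RNA was sequenced from red fluorescent cells sorted out of dissociated zebrafish (Danio rerio) larvae that carried an mpeg1:mCherryF reporter, in which the promoter of the macrophage gene mpeg1 drives the fluorophore. The tested larvae were homozygous for a mutation of the chemokine receptor gene cxcr3.2 (cxcr3.2-/-, 3 libraries), and the larvae they were set against were wild type at that gene (cxcr3.2+/+, 3 libraries). Both genotypes carried the reporter and no label gives any treatment. A separate pool of 150 to 200 larvae was used for each library, and their age is given as 6 days after fertilisation in 1 field and 5 days in another. The comparison asks which transcripts of larval macrophages differ when cxcr3.2 is mutated.

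The phagocyte oxidase moves electrons from cytosolic NADPH across a membrane to oxygen and so makes superoxide inside phagosomes or outside the cell. Its catalytic core is a membrane heterodimer of gp91phox, encoded by cybb, and p22phox, encoded by cyba. In resting cells the organiser p47phox (ncf1) and the adaptor p40phox (ncf4) stay in the cytosol. On stimulation they move to the core together with the GTPase Rac, and loss of a core or cytosolic subunit causes chronic granulomatous disease in humans. Macrophages and neutrophils both use this enzyme.

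Gene counts summed to between 6792943 and 9607009 in the cxcr3.2-/- libraries and between 6239470 and 8452301 in the wild type libraries. After a filter on low counts 16499 genes were tested, and all 5 oxidase genes were among them. Their lowest count in any library was 192 (ncf4), for which counting error alone is 7.22%, and for the other members it was 3.23% or less at their lowest counts. In edgeR's quasi-likelihood test at a Benjamini-Hochberg adjusted p of 0.05, 51 genes were higher and 146 lower in cxcr3.2-/- cells, or 1.19% of all tested genes. Scaling by total counts alone gave 217 higher and 117 lower. The sorted pools held macrophage transcripts, such as cd68 at 795 to 1079 CPM in cxcr3.2-/- and 598 to 675 CPM in wild type libraries, but also epidermal keratin krt4 at 1189 to 1310.3 and 1339 to 1669 CPM. Macrophage markers did not share 1 direction: of 25 tested, 12 had a positive and 13 a negative log2 fold change. Levels below are CPM, the reads of a gene relative to the TMM-scaled library total, with the SD over 3 libraries. They serve to compare 1 gene between libraries and not different genes with each other, since transcript lengths were not used.

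None of the 5 oxidase genes passed edgeR's test over all genes, where 1.19% of all tested genes did, and their point values did not lie in 1 direction. The cxcr3.2-/- libraries lay wholly below the wild type libraries for ncf1, ncf4 and cyba, wholly above them for rac2, and overlapped them for cybb. Libraries of the genotypes did not overlap for 4 of the 5 members, against 20.6% of all tested genes. By direction, 3 of the 5 were lower without overlap, against 10.4% of all tested genes, and 1 was higher, against 10.2%. The median log2 fold change of the 5 was −0.52, against −0.03 over all tested genes. At an unadjusted p of 0.05, 3 members were lower and 1 higher in edgeR, where 14.2% of all tested genes reached that level. DESeq2 called 3 of the 5, all lower (ncf1, ncf4 and cyba), and it called 4.64% lower of the genes to which it gave an adjusted p.

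**Figure D1:**
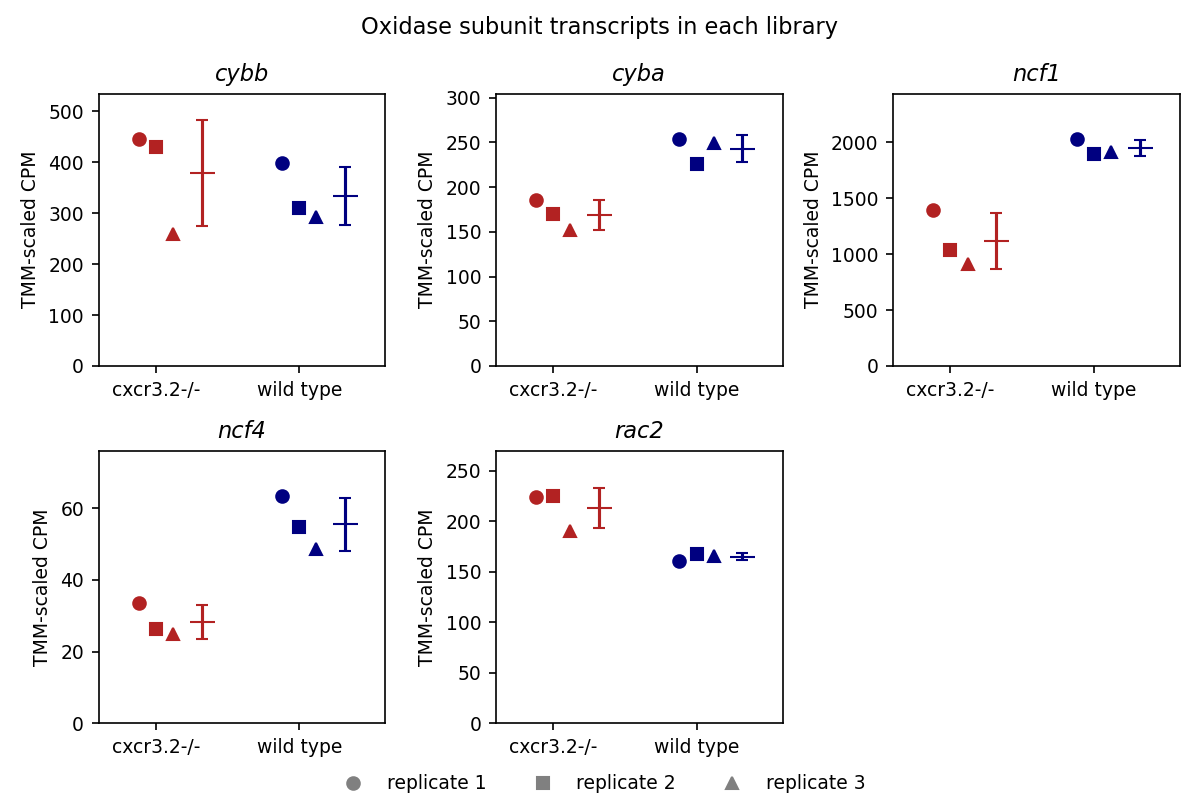
TMM-scaled CPM of the 5 oxidase genes (vertical axes, from 0) in each library of cxcr3.2-/- and wild type macrophages, with the mean and SD over 3 libraries beside the points. The cxcr3.2-/- points lie below all wild type points for cyba, ncf1 and ncf4 and above them for rac2, and those for cybb overlap.

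The catalytic subunit gene cybb, whose product carries the haem groups and the NADPH site, measured 446, 431 and 259 CPM in cxcr3.2-/- libraries 1, 2 and 3, against 398, 311 and 292 CPM in wild type libraries 1, 2 and 3. The groups overlapped, and both the highest and the lowest value of all 6 libraries were in the mutant. The means were 379 ± 104 CPM in cxcr3.2-/- and 334 ± 57 CPM in wild type cells (SD, n = 3 each), with a log2 fold change of 0.18 (SE 0.22, edgeR adjusted p = 0.797). The 95% interval of the fold ran from 0.803 to 1.6, so that a fall of a size like that of ncf1 or ncf4 lies outside it. The value rested on single libraries, from 0.05 without mutant replicate 1 to 0.40 without mutant replicate 3.

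The gene of its membrane partner, cyba, whose product stabilises gp91phox and docks p47phox, measured 186, 169.5 and 152 CPM in cxcr3.2-/- libraries 1, 2 and 3, against 254, 226 and 249 CPM in wild type libraries 1, 2 and 3. The highest mutant library lay below the lowest wild type library. The means were 169 ± 17.1 CPM in cxcr3.2-/- and 243 ± 14.7 CPM in wild type cells (SD, n = 3 each), and the log2 fold change was −0.52 (SE 0.14, 95% interval −0.84 to −0.21). Its edgeR adjusted p was 0.127, and DESeq2 gave an adjusted p of 0.0142.

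The organiser gene ncf1 encodes the subunit whose phosphorylation starts assembly of the complex. It measured 1397, 1039.8 and 913 CPM in cxcr3.2-/- libraries 1, 2 and 3, against 2030.1, 1895 and 1917 CPM in wild type libraries 1, 2 and 3. The wild type libraries lay close together, with a coefficient of variation of 3.72%, and the mutant libraries were spread more widely, at 22.5%. The means were 1116 ± 251 CPM in cxcr3.2-/- and 1947 ± 72.4 CPM in wild type cells (SD, n = 3 each), so that the level was 1.74-fold lower in the mutant. The log2 fold change was −0.80 (SE 0.16, 95% interval −1.16 to −0.45). The edgeR adjusted p of 0.0514 lay just past the threshold, and 1.29% of all tested genes had a smaller p. DESeq2 (adjusted p = 0.000336) and limma-voom (adjusted p = 0.0227) called it, and so did edgeR without mutant replicate 1 (adjusted p = 0.019).

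The adaptor gene ncf4, whose product binds phosphatidylinositol 3-phosphate on phagosomes, measured 33.5, 26.3 and 24.9 CPM in cxcr3.2-/- libraries 1, 2 and 3, against 63.3, 54.6 and 48.5 CPM in wild type libraries 1, 2 and 3. All 3 mutant libraries lay below all wild type libraries. The means were 28.3 ± 4.58 CPM in cxcr3.2-/- and 55.5 ± 7.41 CPM in wild type cells (SD, n = 3 each), which was 1.96-fold lower in the mutant. This was the largest point difference among the 5 genes, with a log2 fold change of −0.97 (SE 0.21, 95% interval −1.46 to −0.49). Its adjusted p was 0.0741 in edgeR, 0.00156 in DESeq2 and 0.0313 in edgeR when only genes with at least 50 counts in at least 3 libraries were kept.

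The GTPase gene rac2, the Rac form typical of blood cells, ran the other way. It measured 224, 225 and 191 CPM in cxcr3.2-/- libraries 1, 2 and 3, against 161, 168 and 166 CPM in wild type libraries 1, 2 and 3. Every mutant library lay above every wild type library, and the wild type values differed little among themselves (coefficient of variation 2.13%). The means were 213 ± 19.6 CPM in cxcr3.2-/- and 165 ± 3.52 CPM in wild type cells (SD, n = 3 each), and the log2 fold change was 0.37 (SE 0.13, 95% interval 0.07 to 0.68, edgeR adjusted p = 0.258). DESeq2 gave an adjusted p of 0.0747. Rac genes are close in sequence and the handling of reads that map to several genes is not given, so reads could have been split among them. The mutant and wild type means were 14.5 and 17.1 CPM for rac1a, 14 and 12.6 CPM for RAC1 (ENSDARG00000087954) and 2.97 and 1.95 CPM for RAC1 (ENSDARG00000099506), and none of these 3 passed the test. For RAC3 the means were 0.695 and 4.81 CPM (ENSDARG00000090062) and 2.48 and 6.45 CPM (ENSDARG00000020795), both lower in the mutant. The former did not overlap between the genotypes and the latter did, and neither passed the test (edgeR adjusted p = 0.256 and 0.398). A further paralog, rac1l, looked up after its values were seen, had 3 counts or fewer in every library.

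In exact two-sided permutation tests of log2(CPM + 0.5), cyba, ncf1, ncf4 and rac2 each gave p = 0.1, the lowest p this design allows, and cybb gave p = 0.8. In bulk RNA of sorted pools, fewer cells of a type and less RNA per cell cannot be told apart. The labels do not say whether the pools came from separate crosses or days, so the p-values measure the spread between these pools.

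**Figure D2:**
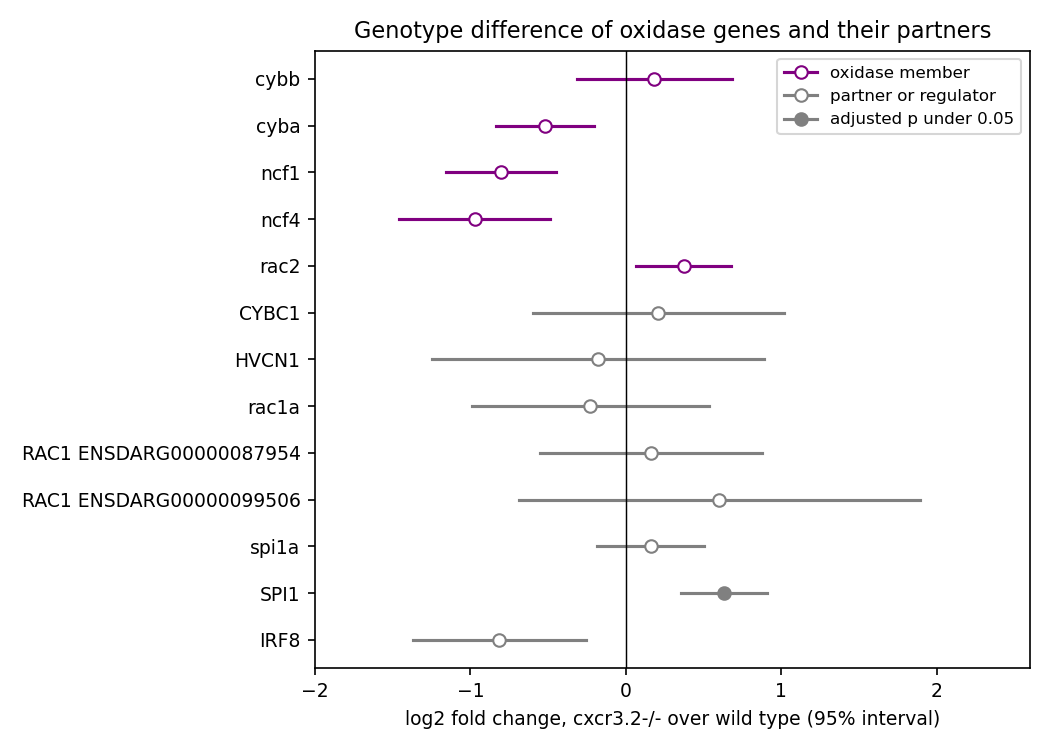
Log2 fold changes of cxcr3.2-/- over wild type macrophages (horizontal axis) with 95% intervals from edgeR for the oxidase genes, their partners and known regulators; filled points have an adjusted p under 0.05. The interval of cybb spans 0, those of cyba, ncf1 and ncf4 lie below 0 and that of rac2 above it, and SPI1 is the only filled point.

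Among genes for partners of the oxidase, CYBC1, whose product is a chaperone of the gp91phox heterodimer in humans and mice, did not separate the genotypes, with 34.5 ± 14.8 CPM in cxcr3.2-/- and 29.8 ± 7.18 CPM in wild type cells (SD, n = 3 each; edgeR adjusted p = 0.866). HVCN1, the voltage-gated proton channel that offsets the charge moved by the oxidase, was near the low end of detection at 5.77 ± 1.65 and 6.51 ± 2.57 CPM in cxcr3.2-/- and wild type cells.

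Relative to cybb within the same library, a measure in which library scaling cancels, the point values of 3 subunits lay lower in cxcr3.2-/- than in wild type libraries, and none of these differences passed a test. The log2 ratio of ncf1 to cybb was 1.65, 1.27 and 1.81 in the mutant libraries and 2.35, 2.61 and 2.72 in the wild type libraries. That of ncf4 to cybb was −3.73, −4.03 and −3.38 in the mutant libraries and −2.65, −2.51 and −2.59 in the wild type libraries. That of cyba to cybb was −1.26, −1.35 and −0.77 in the mutant libraries and −0.65, −0.46 and −0.23 in the wild type libraries. The groups did not overlap for these 3 ratios, although mutant replicate 3 came close to wild type replicate 1 for cyba. How often ratios of other tested genes to cybb separate in this way was not computed. The differences, mutant minus wild type, were −0.98 for ncf1, −1.13 for ncf4 and −0.68 for cyba, larger than the SDs of 0.28, 0.33 and 0.31 among mutant libraries and of 0.19, 0.07 and 0.21 among wild type libraries. The log2 ratio of rac2 to cybb overlapped between the genotypes, with means of −0.79 in the mutant and −1.003 in the wild type (difference 0.21, exact permutation p = 0.6). Exact two-sided permutation tests gave p = 0.1 for each of the other ratios, the smallest value possible, and 0.133 after adjustment over the 4 ratios. The size of a ratio reflects transcript lengths as well as abundance, so only its difference between genotypes is read here.

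**Figure D3:**
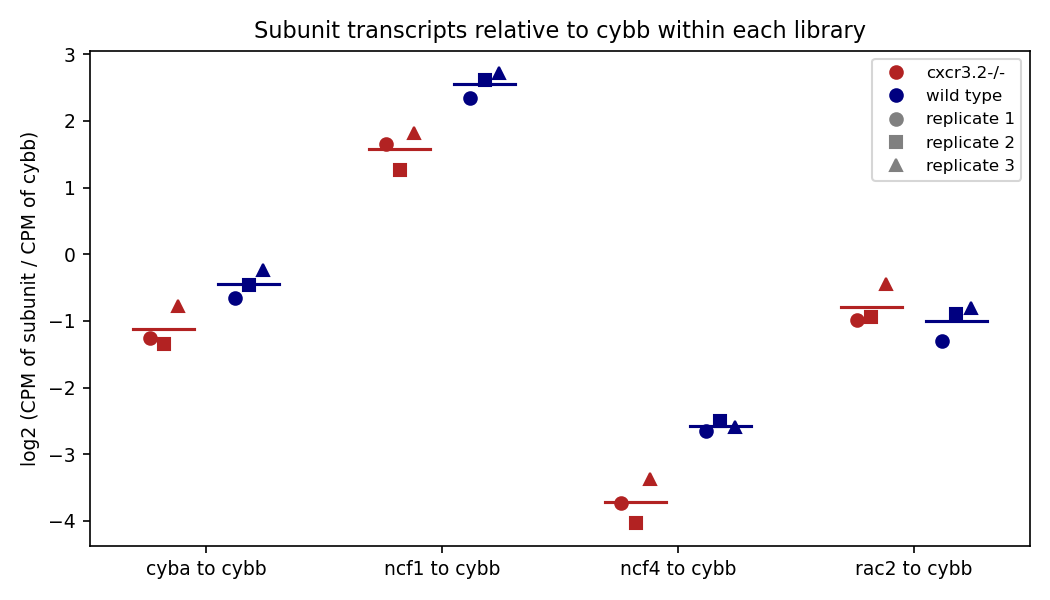
Log2 ratio of the CPM of cyba, ncf1, ncf4 and rac2 to the CPM of cybb (vertical axis) in each cxcr3.2-/- and wild type library, with group means as bars. The mutant points lie below the wild type points for cyba, ncf1 and ncf4, with differences of means of −0.68, −0.98 and −1.13, and overlap them for rac2.

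The order of the libraries within a genotype was partly shared among the members. Mutant replicate 3 had the lowest level of the 3 mutant libraries for each of the 5 genes. For ncf4, mutant replicates 2 and 3 lay close together, at 26.3 and 24.9 CPM, so their order is not read. The summed level of 6 lists of related genes, described below, was also lowest in mutant replicate 3 (13754, 14342 and 12125 CPM in mutant libraries 1, 2 and 3). How many of all tested genes were lowest there was not computed. Among wild type libraries, replicate 1 was the highest for cybb, cyba, ncf1 and ncf4 and the lowest for rac2. For cyba, replicates 1 and 3 lay close together, at 254 and 249 CPM. The wild type coefficient of variation of rac2 was only 2.13%, less than its counting error of 3.23% at its lowest count. Leaving out mutant replicate 3 gave log2 fold changes of −0.67 for ncf1, −0.88 for ncf4, −0.44 for cyba and 0.45 for rac2. No sign changed in any of the fits with 1 library left out. For cyba, ncf1, ncf4 and rac2, whose genotypes did not overlap, these fits could hardly have changed the sign.

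Among 21 tested genes for transcription factors reported to regulate oxidase genes or inflammatory genes in mammals, SPI1 rose and none fell by edgeR's test, a share called of 4.76% against 1.19% of all tested genes. SPI1 (ENSDARG00000000767) encodes the myeloid factor PU.1, which binds promoters of several oxidase genes in mammals. It measured 559.6, 589 and 532 CPM in cxcr3.2-/- libraries 1, 2 and 3, against 336, 356 and 392 CPM in wild type libraries 1, 2 and 3. It was 1.55-fold higher in the mutant (log2 fold change 0.63, SE 0.12, adjusted p = 0.0487), with no overlap between the genotypes. SPI1 was called in 6 of 14 alternative settings, among them DESeq2 (adjusted p = 5.44e-05) and limma-voom (adjusted p = 0.0241). The call was lost in each fit with 1 library left out (adjusted p 0.106 to 0.167), without the count filter (adjusted p = 0.051) and with the replicate block (adjusted p = 0.12). Its paralog spi1a did not pass, with 402 ± 64.3 CPM in cxcr3.2-/- and 359 ± 29.2 CPM in wild type cells (SD, n = 3 each; edgeR adjusted p = 0.727).

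IRF8, which acts with PU.1 on the cybb promoter in mammals, lay in the direction opposite to SPI1, at 17.1, 28.8 and 21.6 CPM in cxcr3.2-/- libraries and 40.1, 41.5 and 36.9 CPM in wild type libraries. The groups did not overlap, and it did not pass the test (log2 fold change −0.81, SE 0.25, edgeR adjusted p = 0.173). The NF-κB subunit genes relb (249 ± 62.5 and 414 ± 12.7 CPM in cxcr3.2-/- and wild type cells) and nfkb2 (184 ± 26.1 and 286 ± 29.9 CPM) also lay lower without overlap, with edgeR adjusted p of 0.101 and 0.0979. CEBPD, a C/EBP family factor induced in inflammation, lay higher, at 328 ± 74 CPM in cxcr3.2-/- and 167 ± 42.3 CPM in wild type cells (edgeR adjusted p = 0.0895). Of the 21 genes, 8 had a positive and 13 a negative sign, and their median log2 fold change was −0.19. At an unadjusted p of 0.05, 4 were lower and 2 higher, where 14.2% of all tested genes reached that level. DESeq2 called 3 lower (IRF8, relb and nfkb2) and 2 higher (SPI1 and CEBPD). Over all genes it called 468 lower and 463 higher of the 10084 given an adjusted p.

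Among 34 tested genes of kinases, phosphatases and phospholipases that act upstream of the oxidase, none passed edgeR's test. At an unadjusted p of 0.05, 4 were lower and 2 higher, where 14.2% of all tested genes reached that level. DESeq2 called 3 lower and 1 higher, and over all genes 468 lower and 463 higher of the 10084 given an adjusted p. Protein kinase C phosphorylates p47phox. PRKCB (ENSDARG00000008723) measured 19.4, 11 and 9.07 CPM in cxcr3.2-/- libraries 1, 2 and 3 and 31.4, 29.4 and 30.5 CPM in wild type libraries 1, 2 and 3 (log2 fold change −1.21, SE 0.32, edgeR adjusted p = 0.123, DESeq2 adjusted p = 0.0119). PRKCD (ENSDARG00000070651) measured 195, 159.8 and 166 CPM in cxcr3.2-/- libraries and 232, 326 and 290.3 CPM in wild type libraries (log2 fold change −0.70, SE 0.17, edgeR adjusted p = 0.0913, DESeq2 adjusted p = 0.00303). For both of these IDs the genotypes did not overlap. The name table gives each kinase name to a second ID as well, and these overlapped between the genotypes. The other PRKCB (ENSDARG00000022254) averaged 81.9 ± 21.3 CPM in cxcr3.2-/- and 79.5 ± 19.8 CPM in wild type cells, and the other PRKCD (ENSDARG00000009208) 23.8 ± 9.45 and 23.5 ± 1.72 CPM (SD, n = 3 each; log2 fold changes 0.04 and 0.02).

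The gene with the lowest p in that list was pik3r6a, which encodes a regulatory subunit of the phosphoinositide 3-kinase gamma that works downstream of chemokine receptors. It measured 5.91, 13.3 and 4.54 CPM in cxcr3.2-/- libraries and 35.9, 38.2 and 25.1 CPM in wild type libraries, a 4.22-fold lower level in the mutant (log2 fold change −2.08, SE 0.42, edgeR adjusted p = 0.0562). It was called in 5 of 14 alternative settings, among them edgeR without mutant replicate 2 (adjusted p = 0.0363) and DESeq2 (adjusted p = 6.76e-05). The kinase gene akt2 (68.3 ± 15.2 and 41.3 ± 6.33 CPM in cxcr3.2-/- and wild type cells) lay higher in the mutant and did not pass. The median log2 fold change of the 34 genes was −0.09.

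Among 23 tested genes of a list of Rac regulators, Rap1 GTPases and PAK kinases, none passed edgeR's test. A positive sign was seen for 17 of them, against 7905 of the 16499 genes tested, and their median log2 fold change was 0.15. At an unadjusted p of 0.05, 3 were higher (rap1b, ELMO2 and ARHGDIA) and 1 lower (PREX2), where 14.2% of all tested genes reached that level. DESeq2 called 3 higher, and over all genes 463 higher and 468 lower of the 10084 given an adjusted p. The GTPase gene rap1b, of the Rap1 family, whose member Rap1A co-purifies with the oxidase core of human neutrophils, measured 239, 263 and 244 CPM in cxcr3.2-/- libraries and 174, 161 and 184 CPM in wild type libraries (log2 fold change 0.52, SE 0.13, edgeR adjusted p = 0.105). ARHGDIA, a GDP dissociation inhibitor that binds Rac, measured 244 ± 7.45 CPM in cxcr3.2-/- and 187 ± 13.7 CPM in wild type cells, and ELMO2, a partner of DOCK exchange factors, 32 ± 5.4 and 17.1 ± 2.58 CPM (SD, n = 3 each; edgeR adjusted p = 0.225 and 0.132). PREX2, a Rac exchange factor, was scarce, at 1.05 ± 0.531 CPM in cxcr3.2-/- and 7.45 ± 1.32 CPM in wild type cells (edgeR adjusted p = 0.0562).

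Of 20 tested Rac family and related small GTPase genes outside the 5 members, 11 had a positive sign, with a median log2 fold change of 0.13. At an unadjusted p of 0.05, 2 were higher and 2 lower, where 14.2% of all tested genes reached that level. DESeq2 called 1 in each direction, and over all genes 463 higher and 468 lower of the 10084 given an adjusted p. The cdc42l gene, of the Cdc42 group that shapes actin protrusions, measured 400.4, 379.5 and 349 CPM in cxcr3.2-/- libraries and 263, 174 and 231 CPM in wild type libraries. Its log2 fold change was 0.76 (SE 0.17, edgeR adjusted p = 0.0764, DESeq2 adjusted p = 0.00096), and 4 of 14 alternative settings called it. The rhoub gene lay lower, at 27.4 ± 3.39 CPM in cxcr3.2-/- and 44.9 ± 5.83 CPM in wild type cells (SD, n = 3 each; edgeR adjusted p = 0.166).

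Genes that remove or respond to reactive oxygen showed no shared direction. Of 21 tested, none passed edgeR's test, 11 had a positive and 10 a negative sign, and the median log2 fold change was 0.0034. At an unadjusted p of 0.05, 5 were lower and 1 higher, where 14.2% of all tested genes reached that level. DESeq2 called 2 lower, and over all genes 468 lower and 463 higher of the 10084 given an adjusted p. HMOX1 encodes the haem oxygenase induced by oxidative stress, among other stimuli. It measured 337, 361 and 252 CPM in cxcr3.2-/- libraries and 545, 859.7 and 502 CPM in wild type libraries. Its log2 fold change was −1.01 (SE 0.23, edgeR adjusted p = 0.0795), and −0.72 without wild type replicate 2, its highest library. PRDX3, the mitochondrial peroxiredoxin, measured 29.7 ± 5.95 CPM in cxcr3.2-/- and 54.4 ± 3.93 CPM in wild type cells (SD, n = 3 each; edgeR adjusted p = 0.101). The cytosolic superoxide dismutase gene SOD1 measured 38.9 and 38.8 CPM, and the glutathione peroxidase gene gpx1a 434 and 417 CPM, in cxcr3.2-/- and wild type cells on average.

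**Figure D4:**
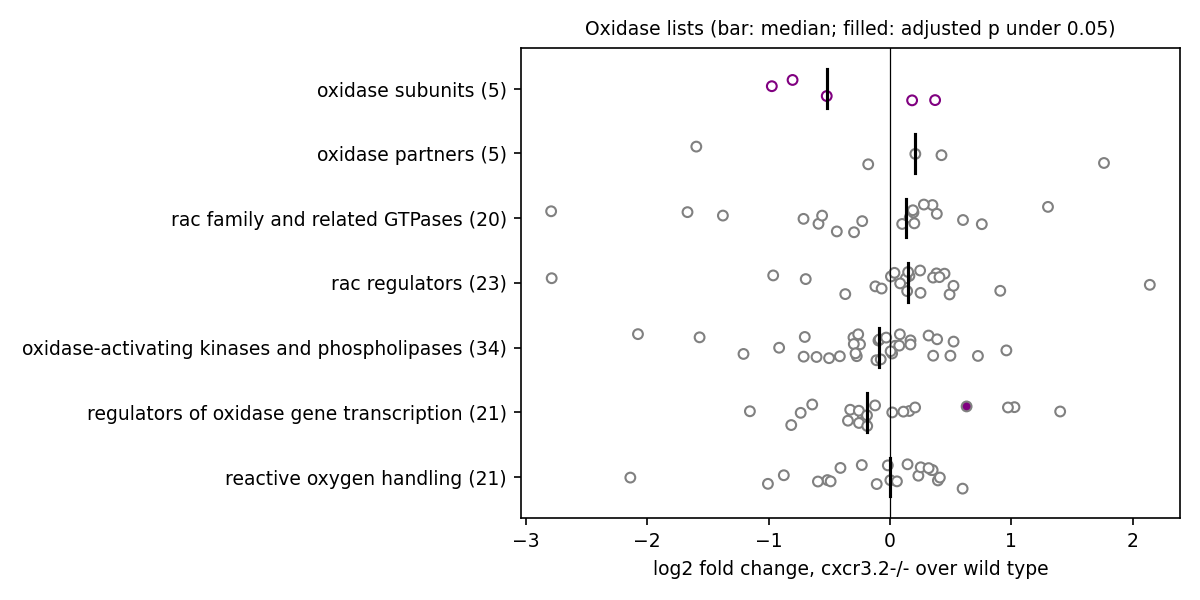
Log2 fold changes of cxcr3.2-/- over wild type macrophages (horizontal axis) for the 5 oxidase genes and the tested genes of 6 related lists, with the number of genes in brackets and the median as a bar; vertical scatter within a row has no meaning. The medians of the 6 related lists lie between −0.19 and 0.21, and SPI1 is the only filled point.

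Markers of neutrophils, the other larval cells rich in this oxidase, were present in all libraries, and 4 of 19 lay higher in the mutant without overlap and 0 lower, where 10.2% and 10.4% of all tested genes did so. Their summed level was 4863, 5135 and 3628 CPM in cxcr3.2-/- libraries 1, 2 and 3 and 3460.1, 3256 and 3871 CPM in wild type libraries 1, 2 and 3. The groups overlapped, and the sum was lowest among mutant libraries in replicate 3, as the oxidase genes were. The summed epidermal, erythroid and neural markers were also lowest among mutant libraries in replicate 3, so this order is not particular to neutrophil markers. The summed macrophage, muscle, and lymphoid and thrombocyte markers were not lowest there. The list includes genes that macrophages also express, such as MMP9 and CXCR4. Of its defining granule genes, none at 0 in any library, lyz measured 81.8, 668 and 31.6 CPM in cxcr3.2-/- libraries and 71.6, 50.4 and 232 CPM in wild type libraries, and npsn 149.8, 234 and 79.8 CPM and 115, 65.9 and 140.2 CPM. Without mutant replicate 2, the library with the most lyz, the log2 fold changes were −0.75 for ncf1, −0.92 for ncf4, −0.52 for cyba and 0.34 for rac2. The part of neutrophil RNA in the differences of the oxidase genes was not tested.

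The macrophage list, with none of its 25 genes at 0 in all libraries, summed to 10801, 10934 and 10929.6 CPM in cxcr3.2-/- libraries and 7016, 8472 and 6999.5 CPM in wild type libraries. This sum was higher in the mutant, whereas ncf1, ncf4 and cyba lay lower; apoeb alone made up 4692 to 5551 CPM of it in the mutant and 2075 to 2858 CPM in the wild type. Of the 25 genes, 2 rose (apoeb and SPI1) and 1 fell (ctss2.2), where 1.19% of all tested genes were called in either direction. The median log2 fold change of the list was −0.01, with 12 positive and 13 negative signs. Without overlap 8 of the 25 lay higher and 5 lower, where 10.2% and 10.4% of all tested genes did so. Epidermal markers summed to 6748 to 7403 CPM in cxcr3.2-/- and 7301 to 8373 CPM in wild type libraries. Muscle markers summed to 737, 2241 and 753 CPM in cxcr3.2-/- libraries 1, 2 and 3 and 669, 724 and 645 CPM in wild type libraries 1, 2 and 3. Of their 20 tested genes 19 had a positive sign, with a median log2 fold change of 1.88, and none passed edgeR's test. Erythroid markers summed to 442, 334 and 238 CPM in cxcr3.2-/- libraries and 249.6, 165 and 220.3 CPM in wild type libraries. Of their 9 tested genes 7 had a positive sign and none passed. Without overlap 4 lay higher and 0 lower, where 10.2% and 10.4% of all tested genes did so. Neural markers summed to 473 to 680 CPM in cxcr3.2-/- and 496 to 553 CPM in wild type libraries, and lymphoid and thrombocyte markers to 93 to 169 CPM and 90.8 to 117 CPM. The part of RNA from these other cells in the differences of the oxidase genes was not tested.

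A heat shock list of 36 genes took 3.38% to 3.77% of the counts in cxcr3.2-/- libraries and 11.3% to 22.7% in wild type libraries, with wild type replicate 2 the highest. Of its 31 tested genes, 17 fell and 0 rose in cxcr3.2-/- cells. Within the wild type, rac2 ran in the order of the heat shock share, highest in replicate 2 and lowest in replicate 1. Its coefficient of variation there was 2.13%, less than the counting error of 3.23% at its lowest count, so this order is not read. Between genotypes, rac2 was lower in the wild type, where the heat shock share was higher. Among wild type libraries, cyba was lowest in replicate 2, and cybb and ncf4 were lowest in replicate 3. For ncf1, replicates 2 and 3 lay close together at 1895 and 1917 CPM, so their order is not read. The heat shock share separated the genotypes fully, and its part in the differences of the oxidase genes was not tested. Without wild type replicate 2 the log2 fold changes were −0.81 for ncf1, −0.98 for ncf4, −0.56 for cyba and 0.39 for rac2, and with scaling factors computed without the heat shock genes they were −0.79, −0.97, −0.51 and 0.38.

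The genes whose levels followed each member most closely were found by Pearson correlation of log2 CPM over the 6 libraries among 7241 named genes with a mean of at least 3 on that scale. Because the genotypes separate most members, these correlations largely restate the genotype difference, and they are given as a description. The closest gene to ncf1 was PRKCB (ENSDARG00000008723, r = 0.997), while the other PRKCB ID overlapped between the genotypes. Next to it came rpz5, TRAM1 and relb (r = 0.992 or more). For ncf4 the closest genes were pard6a (r = 0.995), TFEC, tefb and her4.2, and for cyba cxcl8a (r = 0.996), tefb, sh3kbp1 and PDK2. The gene tefb stood among the closest 4 of both. For rac2 they were WDR3 (r = 0.996), FARSA, DIP2B and krt18b. For cybb they were ESS2 (r = 0.970), TSPAN14, cahz and nop16. Correlations above 0.9 numbered 44 for cybb, 148 for cyba, 158 for ncf1, 161 for ncf4 and 278 for rac2.

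The direction of each member held under all 14 alternative settings, while the call did not. For cyba, ncf1, ncf4 and rac2, whose genotypes did not overlap, the settings with 1 library left out could hardly have changed the direction. The log2 fold change ranged from −0.99 to −0.54 for ncf1, from −1.11 to −0.71 for ncf4, from −0.59 to −0.26 for cyba, from 0.05 to 0.44 for cybb and from 0.34 to 0.64 for rac2. The values nearest 0 for ncf1, ncf4 and cyba came from scaling by total counts, which moved the median of all tested genes to 0.24 from −0.03. Under it ncf1 measured −0.54, ncf4 −0.71, cyba −0.26, cybb 0.44 and rac2 0.64. Relative to the median of all genes these are −0.78, −0.95, −0.50, 0.20 and 0.40, against −0.77, −0.95, −0.49, 0.21 and 0.40 in the reported fit. A change of scaling shifts all genes by nearly the same amount, so this match follows from the arithmetic and is not a test. By number of settings, ncf1 was called lower in 5 of the 14, ncf4 in 2, cyba in 1 and cybb and rac2 in none. The settings that called ncf1 lower also called other genes lower. These were 1.03% (limma-voom), 0.604% (no count filter), 3.07% (at least 50 counts in at least 3 libraries) and 0.445% (without mutant replicate 1) of the genes tested. For DESeq2 the share was 4.64% of the 10084 genes to which it gave an adjusted p.

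**Figure D5:**
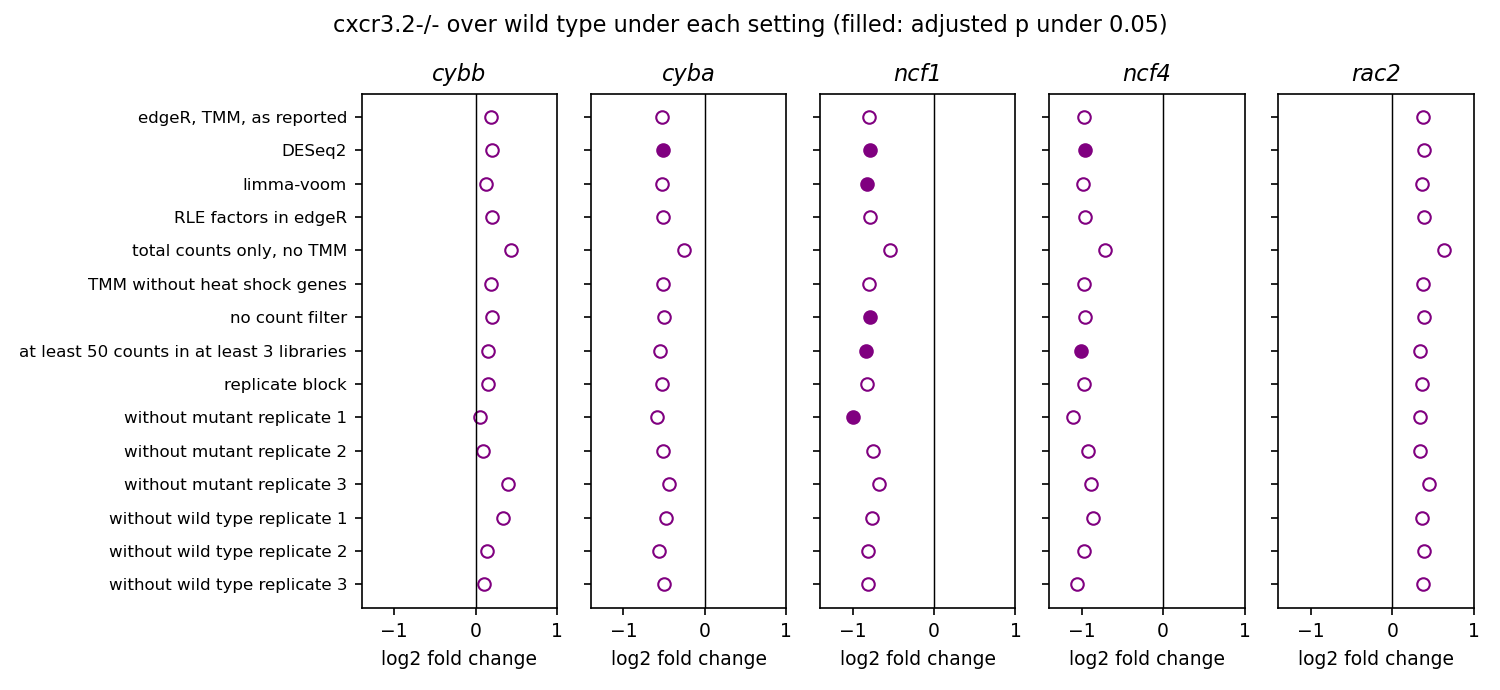
Log2 fold changes of cxcr3.2-/- over wild type (horizontal axes) for each of the 5 oxidase genes under the reported fit and 14 alternatives (rows); filled points have an adjusted p under 0.05. No point changes side of 0, and the filled points belong to ncf1, ncf4 and cyba.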

How the data were processed

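The deposited files give raw read counts per Ensembl gene for 6 libraries, with no normalization. Per the labels' protocols, cDNA was amplified with a low-input kit and single reads were aligned to GRCz10; per the submitters' processing notes Bowtie and TopHat were used. What counted the reads, and with which gene annotation, is not given in the sources used here, and counts carry no molecular identifiers. Symbols came from a name table that covered 26121 of 31962 IDs, and no position or sequence is given, since no table of the files' build was used here.

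The test was edgeR 4.0.16 in R 4.3.3 (filterByExpr, minimum count 10, minimum total 15; TMM; glmQLFit and glmQLFTest on genotype alone, two-sided, Benjamini-Hochberg over 16499 genes, threshold 0.05). SEs and 95% intervals use the quasi-likelihood variance. DESeq2 1.42.0 and limma 3.58.1 (voom) were alternatives, with other scalings, filters, a replicate block and each library left out. The log2 CPM used a prior count of 2.

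The members and lists were chosen with earlier results of these data known. Named are the members, CYBC1, HVCN1, rac1a, RAC1, spi1a, SPI1 and IRF8. Genes among the 5 lowest p of each of 6 lists and the 4 genes most correlated with each member are also named. SOD1, gpx1a, rac1l, RAC3 (ENSDARG00000020795) and the marker genes were named after their values were seen. List symbols were matched exactly, then in capitals, then without a paralog suffix, and symbols with more than 3 IDs were dropped. A suffix-free match that gave an unrelated gene was removed. Some genes that this rule names are not reported here. The p and median values of lists are descriptions with no set test.

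Replicates of a genotype all differed beyond sampling noise, with a chi-square of at least 16.5 per gene. On simulated counts for mutant against wild type (15418 genes), 13% of 100 genes changed 2-fold and 43% of 100 changed 4-fold were called. The changed genes were drawn from genes of all but the lowest levels, so these rates need not hold for genes at the levels of the members.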

Additional observations from a re-analysis of the deposited data

How the results depend on the processing

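Over all genes, DESeq2 called 463 higher and 468 lower, a filter of at least 50 counts in at least 3 libraries 142 and 295, and scaling by total counts 217 higher. The replicate block called 13 higher and 84 lower, and with 1 library left out 3 to 11 were higher and 43 to 98 lower. The replicate block changed no call of the 5 members (ncf1 −0.83, edgeR adjusted p = 0.0597). Deviations of same-numbered libraries from their genotype means had correlations of −0.03, 0.0024 and −0.03, and no library deviated most like its own number. With 3 libraries a genotype, these values cannot tell whether same-numbered pools shared a cross or a day.

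Among the 124 tested genes of the 6 lists, 1 rose and 0 fell in the reported fit. DESeq2 called 8 higher and 9 lower, limma-voom 2 higher and 1 lower, no count filter 0 higher and 1 lower, the stricter filter 3 higher and 6 lower, total counts 4 higher and the replicate block 0 higher. With 1 library left out 0 were higher and 0 to 1 lower (pik3r6a).

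Called beyond the reported fit were cyba by DESeq2 (−0.51), ncf4 by DESeq2 (−0.96) and the stricter filter (−1.002), and ncf1 by DESeq2 (−0.79), limma-voom (−0.83), no filter (−0.78) and the stricter filter (−0.83). With 1 library left out ncf1 ranged from −0.99 to −0.67 (adjusted p 0.019 to 0.176). The cause of these differences was not tested. The ratios to cybb kept their signs in all fits, from −1.10 to −0.83 for ncf1, −1.30 to −0.97 for ncf4, −0.86 to −0.57 for cyba and 0.04 to 0.31 for rac2 with 1 library left out. The replicate block leaves the mean difference of a ratio unchanged. For ncf1, ncf4 and cyba, whose ratios did not overlap between genotypes, leaving out a library could not change the sign. Each genotype had 3 libraries, and the common biological coefficient of variation over all tested genes was 0.441. The parts of library number, spread and depth in the precision of these values were not tested.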

Other observations

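The ratios of all 10 pairs among the 5 oxidase genes were computed after the values above were seen and are a description with no test. For 8 pairs the log2 ratios of the cxcr3.2-/- libraries did not overlap those of the wild type libraries, and for 2 they did: cybb with rac2, and ncf1 with ncf4. The pairs reuse the same 5 genes, most of which separate the genotypes on their own, so these counts partly restate the single-gene values. The share of such pairs over all tested genes was not computed. The ratio of ncf1 to ncf4, both cytosolic subunits, was the closest between genotypes, at 5.29 ± 0.10 in cxcr3.2-/- and 5.14 ± 0.15 in wild type libraries on the log2 scale (SD, n = 3 each). The ratio of ncf4 to rac2 stood furthest apart, at −2.74, −3.10 and −2.94 in cxcr3.2-/- libraries and −1.35, −1.62 and −1.77 in wild type libraries, a difference of −1.35. That of ncf1 to rac2 was 2.64, 2.21 and 2.26 in cxcr3.2-/- libraries and 3.66, 3.50 and 3.53 in wild type libraries, a difference of −1.19.

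Transcripts of oxidases of other tissues were scarce in both genotypes. The colon oxidase gene of mammals, nox1, measured 1.15 ± 0.958 CPM in cxcr3.2-/- and 3.56 ± 0.942 CPM in wild type cells, and noxo1a, an organiser related to ncf1, 3.99 ± 3.65 and 1.16 ± 0.382 CPM (SD, n = 3 each; edgeR adjusted p = 0.401 and 0.466). The mutant mean of noxo1a rested on replicates 1 and 2, at 3.91 and 7.68 CPM, against 0.378 CPM in replicate 3. NOX5 had no count in any library, and the dual oxidase gene duox and the activator gene noxa1 stayed below 1 CPM in all 6.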
